A study of Rattus norvegicus with 4 samples.

Results

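The Notch pathway was followed here in rat cartilage through 10 genes: the receptors Notch1, Notch2, Notch3 and Notch4, the ligands Dll4, Jag1 and Jag2, and the target genes Hes1, Hey1 and Heyl. Members were the rows of the count table that carry these symbols, which gave 9 of the 10 genes among 13554 in the table, and Jag2 was not analysed here. All 9 passed the filter on low counts. RNA had been sequenced from articular cartilage, the smooth cover of bone ends in joints, and from xiphoid cartilage, the tip of the breastbone, with 2 libraries of each. Both tissues came from Sprague-Dawley rats 8 to 10 weeks old, and no treatment or mutation is given for either. The labels name neither the joint, nor the sex, nor how many animals stand behind a library. The p-values thus measure the spread between these libraries, shared in part across genes, and that spread may be technical.

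Notch is a signal between touching cells. A Jagged or Delta ligand on a cell binds a Notch receptor on its neighbour, a surface protease and then the gamma-secretase complex cut the receptor, and the freed intracellular part joins the DNA-binding protein RBPJ to switch on genes such as those of the HES and HEY repressors. In mouse, the pathway is known to affect the pace of chondrocyte maturation and the upkeep of joint cartilage, and it also shapes blood vessels, bone and marrow cells.

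The libraries held between 7351006 and 8434820 counts. Chondrocyte markers were present in every library: 11 of 12 listed genes were matched, none was at 0, and together they took 13.1% and 11.1% of articular counts, against 3.57% and 3.27% of xiphoid counts. Col2a1, the main cartilage collagen, gave most of the articular share (6.06-fold higher in articular cartilage, adjusted p = 1.58e-07), and the other 10 genes took 2.79% and 2.48% of articular counts, against 1.93% and 1.80% of xiphoid counts. Of the 11 genes, 6 were higher in articular cartilage and 2 in xiphoid cartilage, while 3 did not pass. The cartilage proteoglycan Acan was 1.40-fold higher in articular cartilage (adjusted p = 0.019, and from 0.0692 to 0.193 without articular replicate 1 or either xiphoid replicate), and Sox9, the regulator of chondrocyte fate, did not pass (log2 fold change 0.18, adjusted p = 0.415). Cnmd, which encodes chondromodulin, was higher in xiphoid cartilage by 3.20-fold (adjusted p = 2.49e-06), and the matrix protein gene Comp by 1.40-fold (adjusted p = 0.0167, and 0.128 and 0.173 without xiphoid replicate 1 or 2). Other cells were present too. Osteoblast markers (7 of 8 tested genes higher in articular cartilage), osteoclast markers (5 of 5) and erythroid markers (8 of 8) took 0.972% and 0.899%, 0.192% and 0.201%, and 0.527% and 0.502% of the articular counts, against 0.603% and 0.647%, 0.0152% and 0.0141%, and 0.0414% and 0.0419% of the xiphoid counts. The xiphoid osteoblast share was nearly all Col1a1, a collagen of many tissues that did not pass (log2 fold change -0.12, adjusted p = 0.562). Without it, the other 7 osteoblast genes took 0.422% and 0.301% of the articular counts, against 0.00245% and 0.00233% of the xiphoid counts. Skeletal muscle markers (8 of 9 higher in xiphoid cartilage) and adipocyte markers (7 of 7) took 0.0302% and 0.0235%, and 0.00521% and 0.00439%, of the articular counts, against 0.805% and 0.828%, and 0.224% and 0.175%, of the xiphoid counts. Neutrophil markers (5 of 6 tested genes higher in articular cartilage) and B cell markers (5 of 5) took 0.0179% and 0.0183%, and 0.00434% and 0.00367%, of the articular counts, against 0.00107% and 0.00127%, and 0.000142% and 6.8e-05%, of the xiphoid counts. Fibroblast and perichondrium markers (7 of 8 higher in xiphoid cartilage) took 0.106% in both articular libraries, against 1.74% and 1.58% in the xiphoid libraries. At 0 in both xiphoid libraries were Phex of the osteoblast list, Atp6v0d2, Calcr and Oscar of the osteoclast list, Elane, Camp and Ngp of the neutrophil list and Cd79b, Vpreb1, Igll1 and Pax5 of the B cell list, and at 0 in both articular libraries were Myh2 of the muscle list and Lep of the adipocyte list. In bulk tissue, fewer cells of a type and less RNA per cell cannot be told apart.

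Of the 9 measured Notch genes, Hes1 was the only member that differed between the tissues by the test, and it was 2.40-fold higher in articular cartilage. The receptors, the ligands and the other targets did not pass. Thus 1 of 9 members was called, 11.1%, beside 49.5% of the 11202 genes tested (edgeR quasi-likelihood test, adjusted p under 0.05 after Benjamini-Hochberg over all genes tested). Level classes close to those of the members had like shares, with 48.6% of 3073 genes called between 1 and 10 CPM and 48.3% of 6545 genes between 10 and 100 CPM. The median log2 fold change of the 9 members, articular over xiphoid, was 0.30, beside -0.02 over all genes tested, and the median of its size was 0.31, beside 0.57. Both articular libraries lay above both xiphoid libraries for 5 members, beside 37.1% of all genes tested. They lay below them for 2 members, beside 37.8%, and separation in either direction held for 74.9% of all genes tested. CPM here are library-size normalised counts after TMM scaling. They are not divided by transcript length, so a level of a gene is compared with that of the same gene only.

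**Figure D1:**
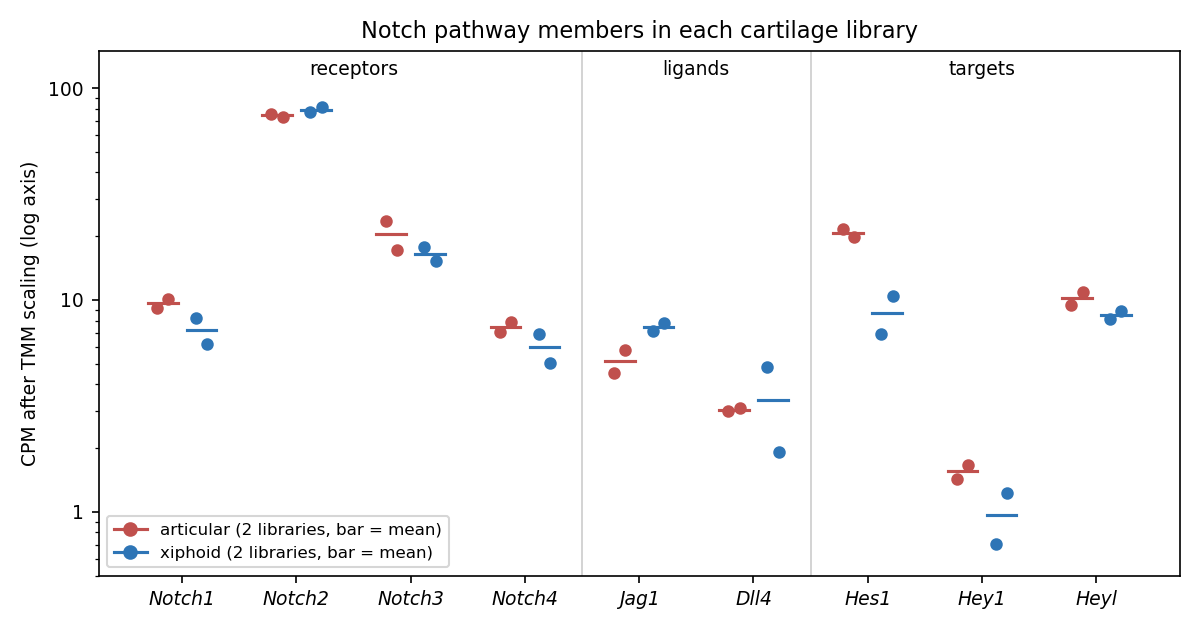
Level of each measured member in every library, in CPM on a log axis, with articular libraries in red on the left and xiphoid libraries in blue on the right of each gene; short bars are the means of 2 libraries. Hes1 is the member whose tissues lie farthest apart, at 21.7 and 19.8 CPM in articular libraries, against 6.94 and 10.4 CPM in xiphoid libraries.

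Notch2 (Entrez gene 29492), one of the receptors that chondrocytes are known to make, was measured most precisely. It was at 75.7 and 73.0 CPM in the articular libraries and at 76.8 and 81.1 CPM in the xiphoid libraries. The xiphoid libraries were the higher ones by a narrow margin, and the test did not separate the tissues. The log2 fold change was -0.09 (SE 0.15, adjusted p = 0.66), and its 95% interval, which like the others here is not adjusted for the number of genes, ran from 0.753-fold to 1.18-fold.

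Notch1 (Entrez gene 25496), the receptor used by many stem cells, T cells and vessels, was at 9.21 and 10.1 CPM in articular libraries, against 8.23 and 6.16 CPM in xiphoid libraries. The articular libraries were the higher ones, with a log2 fold change of 0.42 (SE 0.27), but this did not pass (adjusted p = 0.228, 95% interval 0.883-fold to 2.03-fold). Notch4 (Entrez gene 406162), a receptor mainly of endothelial cells, was at 7.06 and 7.83 CPM in articular libraries, against 6.94 and 5.07 CPM in xiphoid libraries. Its articular libraries lay just above the higher xiphoid library, and the log2 fold change of 0.30 (SE 0.30) did not pass (adjusted p = 0.429, 95% interval 0.785-fold to 1.94-fold). Notch3 (Entrez gene 56761), the receptor of smooth muscle cells and pericytes around vessels, was at 23.6 and 17.2 CPM in articular libraries, against 17.8 and 15.2 CPM in xiphoid libraries. The tissues overlap for Notch3, since the lower articular library lies below the higher xiphoid library. Its log2 fold change was 0.31 (SE 0.22, adjusted p = 0.277, 95% interval 0.883-fold to 1.73-fold). It was 0.06 without articular replicate 1 and 0.51 without articular replicate 2.

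Summed over the 4 receptors, the level was 111.9 ± 5.24 CPM in articular libraries, against 108.6 ± 1.53 CPM in xiphoid libraries (SD, n = 2 each). Notch2 supplied 65.5% (95% Wilson interval 62.5 to 68.5) and 67.5% (64.2 to 70.5) of the receptor counts in the articular libraries, against 70.0% (67.0 to 72.8) and 75.4% (72.3 to 78.3) in the xiphoid libraries. These intervals cover counting error only. The share of Notch3 was 20.4% and 15.9% in articular and 16.2% and 14.1% in xiphoid cartilage, and that of Notch4 was 6.11% and 7.24% in articular against 6.32% and 4.71% in xiphoid cartilage. In every library Notch2 thus gave most of the receptor counts, although longer transcripts also give more reads.

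**Figure D2:**
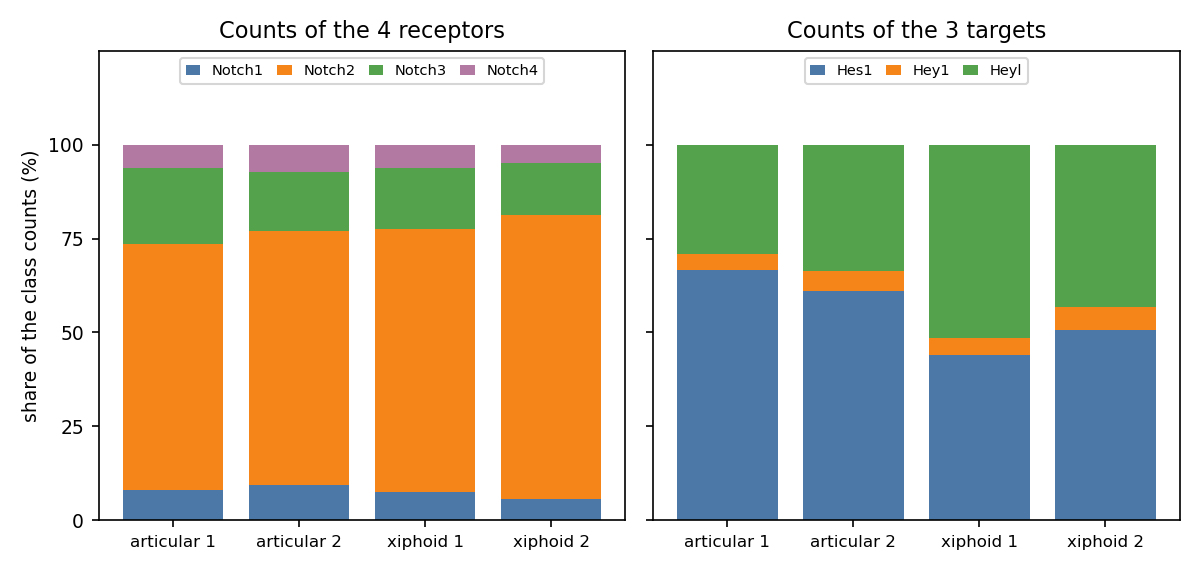
Share of the summed counts of the 4 receptors (left) and of the 3 targets (right) in each library, in percent, with articular libraries left of xiphoid libraries. Notch2 fills 65.5% to 75.4% of the receptor bars, and Hes1 fills 66.5% and 61.1% of the target bars in articular and 44.0% and 50.7% in xiphoid cartilage.

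The ligands were read from few counts. Jag1 (Entrez gene 29146), a Jagged ligand with a conserved role in vessels, bone and the inner ear, had 38 and 45 counts in articular libraries, against 61 and 57 in xiphoid libraries. That is 4.55 and 5.78 CPM in articular libraries, against 7.17 and 7.81 CPM in xiphoid libraries, so both xiphoid libraries lay above both articular ones. The log2 fold change of -0.54 (SE 0.30) did not pass (adjusted p = 0.159), and its 95% interval ran from 0.438-fold to 1.09-fold. Jag1 was the member with the lowest adjusted p after Hes1.

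Dll4 (Entrez gene 311332), the Delta ligand of sprouting endothelial tip cells, had 25 and 24 counts in articular libraries, against 41 and 14 in xiphoid libraries. The articular libraries, at 2.99 and 3.08 CPM, lay between the xiphoid libraries, at 4.82 and 1.92 CPM. The exact 95% Poisson intervals of the xiphoid counts, 29.4 to 55.6 and 7.65 to 23.5, do not meet, so these 2 libraries differed by more than counting error. The log2 fold change was -0.17 (SE 0.47, adjusted p = 0.789, 95% interval 0.438-fold to 1.80-fold) and turned to 0.67 without xiphoid replicate 1 (adjusted p = 0.461). Dll4 also overlaps the gene Dll4l1 in the RefSeq annotation of GRCr8, a gene that was not analysed here, so its reads are uncertain.

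Hes1 (Entrez gene 29577) encodes a basic helix-loop-helix repressor and is the best known direct Notch target. It had 181 and 154 counts in articular libraries, against 59 and 76 in xiphoid libraries, or 21.7 and 19.8 CPM in articular against 6.94 and 10.4 CPM in xiphoid libraries. Both articular libraries lay well above both xiphoid libraries. The means were 20.7 ± 1.32 CPM in articular libraries, against 8.67 ± 2.46 CPM in xiphoid libraries (SD, n = 2 each), a log2 fold change of 1.26 (SE 0.25, adjusted p = 0.00109) with a 95% interval of 1.66-fold to 3.48-fold. With single libraries left out, the log2 fold change lay between 1.00 and 1.59 and passed each time. The osteoblast, osteoclast, erythroid, neutrophil and B cell markers given above were mostly higher in the same articular libraries. Muscle, fat, and fibroblast and perichondrium markers were mostly higher in the same xiphoid libraries. Their part in the Hes1 difference was not tested. Hes1 can also be switched on by signals other than Notch.

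Heyl (Entrez gene 313575), a HEY family repressor typical of smooth muscle around vessels, was at 9.45 and 10.9 CPM in articular libraries, against 8.11 and 8.90 CPM in xiphoid libraries. The articular libraries were higher by a small step that did not pass (log2 fold change 0.26, SE 0.26, adjusted p = 0.429, 95% interval 0.813-fold to 1.76-fold). Its span overlaps a noncoding RNA gene in the RefSeq annotation of GRCr8, which was not analysed here, so its reads are uncertain too. Hey1 (Entrez gene 155437), another HEY repressor and a target of both Notch and BMP signals, was near the floor of the assay, with 12 and 13 counts in articular libraries, against 6 and 9 in xiphoid libraries. At 1.44 and 1.67 CPM in articular against 0.706 and 1.23 CPM in xiphoid libraries, the articular ones were higher, but the log2 fold change of 0.69 (SE 0.60) did not pass (adjusted p = 0.367). Its 95% interval, 0.651-fold to 3.998-fold, holds the fold of Hes1, so at this depth Hey1 could have differed as much as Hes1 did. The Hes1 share of the counts of the 3 targets was 66.5% (95% Wilson interval 60.7 to 71.9) and 61.1% (55.0 to 66.9) in articular cartilage, against 44.0% (35.9 to 52.5) and 50.7% (42.7 to 58.6) in xiphoid cartilage.

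**Figure D3:**
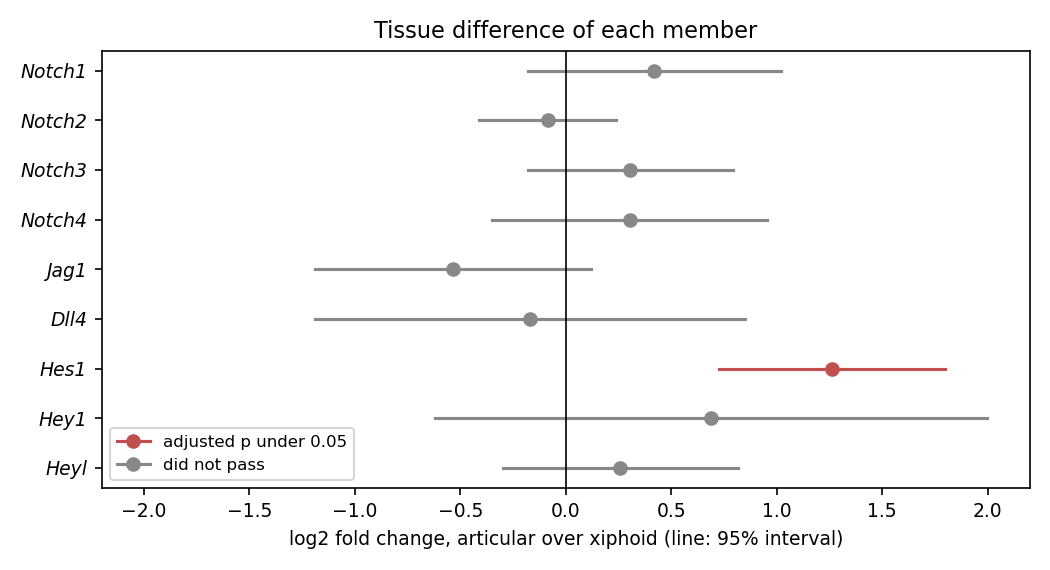
Log2 fold change of each measured member, articular over xiphoid cartilage, with its 95% interval as a line; red marks an adjusted p under 0.05 and grey the members that did not pass. Hes1 alone has an interval clear of 0, from 0.73 to 1.80, while the intervals of Hey1 and Dll4, the members with the fewest counts, are the widest.

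RBPJ, the DNA-binding partner of the cut receptor, is known to recognise the letters GTGGGAA. The 250 bases before the start of each gene were searched for GTGGGAA and for the shorter TGGGAA, which lies inside it, on both strands. RefSeq promoters of GRCr8 were at hand for 7 of the 9 measured members, among which Hes1 alone held GTGGGAA, and Hes1 and Notch4 held TGGGAA. Of 33469 promoters of the same length, 5.27% held GTGGGAA and 22.1% held TGGGAA. The windows below show Hes1, the member that differed, and 2 HEY genes for contrast: Heyl, with no match, and Hey2, a HEY repressor outside the 10 genes that went the other way (values below). Capitals mark every match, and a TTCCCA in capitals is TGGGAA on the opposite strand. A match is no proof of binding.
Hes1, chr11:84213046-84213295, minus strand: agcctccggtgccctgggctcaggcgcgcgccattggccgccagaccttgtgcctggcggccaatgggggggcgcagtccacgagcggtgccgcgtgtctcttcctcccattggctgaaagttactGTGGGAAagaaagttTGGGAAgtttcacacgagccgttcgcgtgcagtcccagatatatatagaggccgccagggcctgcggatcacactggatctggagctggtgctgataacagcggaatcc
Heyl, chr5:140793021-140793270, plus strand: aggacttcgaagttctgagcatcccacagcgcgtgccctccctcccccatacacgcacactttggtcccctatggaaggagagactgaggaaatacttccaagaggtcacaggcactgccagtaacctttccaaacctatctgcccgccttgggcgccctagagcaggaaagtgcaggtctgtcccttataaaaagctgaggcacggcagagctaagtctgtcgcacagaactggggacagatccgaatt
Hey2, chr1:28640850-28641099, plus strand: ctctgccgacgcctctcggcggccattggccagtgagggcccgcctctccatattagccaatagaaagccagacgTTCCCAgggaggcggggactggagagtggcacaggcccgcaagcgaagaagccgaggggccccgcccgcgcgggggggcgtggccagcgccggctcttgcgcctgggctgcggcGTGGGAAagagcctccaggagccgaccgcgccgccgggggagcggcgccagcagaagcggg
In the Hes1 window GTGGGAA lies 124 to 118 bases before the start, and a second TGGGAA follows 109 to 104 bases before it in the same direction. In the Hey2 window GTGGGAA lies 61 to 55 bases before the start, and a TGGGAA lies 175 to 170 bases before it on the opposite strand.

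A further list held 8 genes, namely other HES and HEY genes or their relatives, and Nrarp. Of these, Hes2, Hes6, Hes7, Hey2 and Nrarp were matched and 3 were tested. Hey2 (Entrez gene 155430), known from heart and arteries, was at 1.67 and 2.57 CPM in articular libraries, against 7.17 and 8.08 CPM in xiphoid libraries. It was higher in xiphoid cartilage by 3.59-fold (log2 fold change -1.84, SE 0.37, adjusted p = 0.00123), the opposite direction to Hes1. Nrarp, a target that feeds back on the receptor, was at 4.31 and 2.57 CPM in articular against 6.47 and 6.03 CPM in xiphoid libraries, and did not pass (log2 fold change -0.85, adjusted p = 0.0658). Its log2 fold change was -1.28 without articular replicate 1 and -0.54 without articular replicate 2. Hes6, which counteracts Hes1 in mouse, was at 23.0 and 13.4 CPM in articular against 21.8 and 15.3 CPM in xiphoid libraries, with more spread inside each tissue than between them (log2 fold change -0.03, adjusted p = 0.936). Hes2 and Hes7 had too few counts to test, with 2 and 6 in articular against 0 and 1 in xiphoid libraries for Hes2, and 2 and 0 in articular against 3 and 0 in xiphoid libraries for Hes7.

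Other pathway genes were taken from 8 lists of 69 genes, of which 56 were matched and 52 tested. Of these, 14 were higher in articular cartilage and 10 in xiphoid cartilage, while 28 did not pass, so 46.2% were called, close to the 49.5% of all genes tested. Their median log2 fold change was -0.01, beside -0.02 over all genes. The share called is thus near that of all genes, and the genes named below are given for their place in the pathway.

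**Figure D4:**
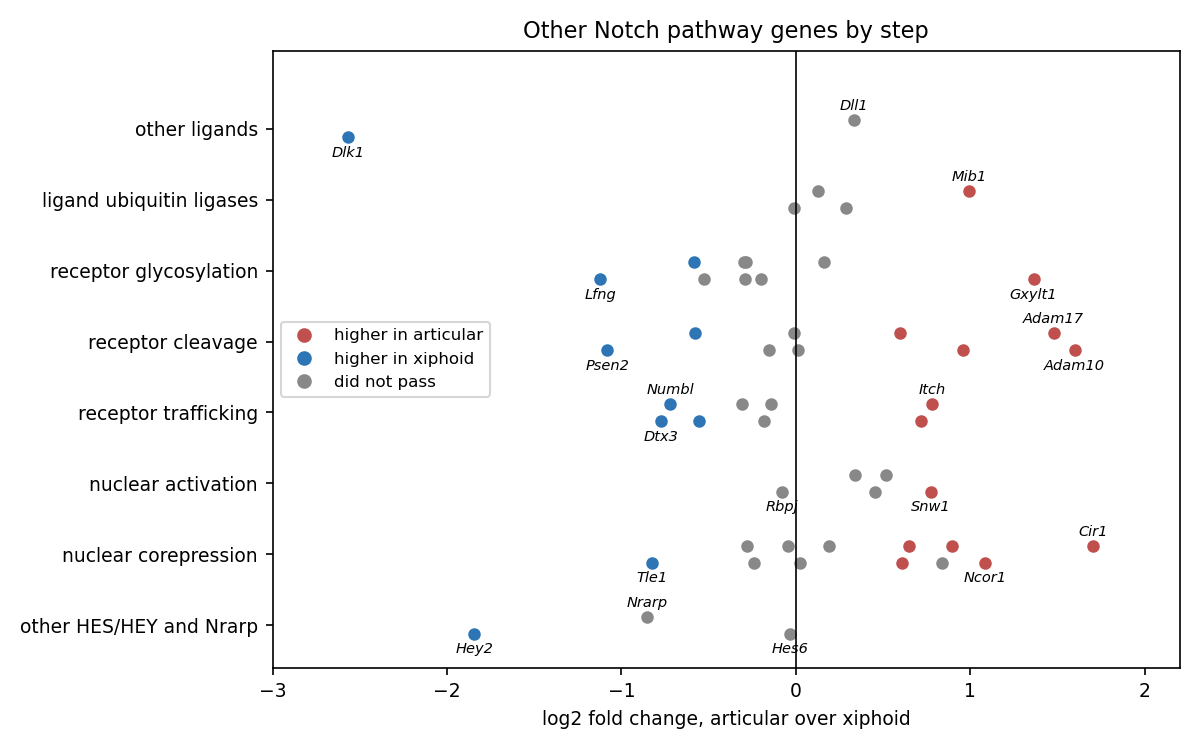
Log2 fold change, articular over xiphoid cartilage, of the 52 tested pathway genes outside the 10, by step of the pathway; red is higher in articular, blue higher in xiphoid cartilage and grey did not pass. Both directions occur within several steps: in receptor cleavage Adam10 lies at 1.60 and Psen2 at -1.08, and in receptor glycosylation Gxylt1 lies at 1.36 and Lfng at -1.12.

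Among other ligands, Dlk1, a Delta-like protein without the receptor-binding domain of the canonical ligands and known from fat precursor cells, was at 20.5 and 24.7 CPM in articular libraries, against 117.7 and 149.9 CPM in xiphoid libraries. It was higher in xiphoid cartilage by 5.93-fold (log2 fold change -2.57, SE 0.18, adjusted p = 3.18e-07), in the libraries that also held the higher adipocyte markers, whose part was not tested. Dll1, a canonical Delta ligand, was at 1.56 and 4.62 CPM in articular against 3.41 and 1.37 CPM in xiphoid libraries and did not pass (log2 fold change 0.33, adjusted p = 0.664). Its direction rests on single libraries, at -0.64 without articular replicate 2 and -0.15 without xiphoid replicate 2. Dll3 and Dlk2 were too low to test, with 3 and 6 counts in articular libraries against none in either xiphoid library for Dll3, and none in either articular library against 5 and 9 counts in xiphoid libraries for Dlk2, where none allows up to 3 counts.

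The ubiquitin ligases let a ligand-bearing cell pull on the receptor. Mib1, the main one in mammals, was at 76.3 and 88.2 CPM in articular libraries, against 38.6 and 44.2 CPM in xiphoid libraries. It was higher in articular cartilage by 1.99-fold (log2 fold change 0.99, SE 0.16, adjusted p = 3.2e-04). The other 3 tested genes of the list, Mib2, Neurl1 and Neurl1b, did not pass.

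Enzymes that add sugars to the receptor moved both ways, with 1 of 9 tested genes higher in articular cartilage and 2 in xiphoid cartilage, while 6 did not pass. Lfng, a fringe enzyme that lengthens a fucose on the receptor and so shifts which ligands it answers to, was at 16.5 and 13.9 CPM in articular libraries, against 34.8 and 31.4 CPM in xiphoid libraries, higher in xiphoid cartilage by 2.18-fold (log2 fold change -1.12, SE 0.20, adjusted p = 4.94e-04). Mfng and Rfng, the other fringe enzymes, did not pass, Rfng narrowly (log2 fold change -0.53, adjusted p = 0.0501), and it passed in 4 of 14 other settings. Gxylt1, which adds xylose to a glucose on the receptor, was at 31.9 and 32.8 CPM in articular libraries, against 11.6 and 13.6 CPM in xiphoid libraries, 2.57-fold higher in articular cartilage (adjusted p = 1.19e-04). Poglut1, which places that glucose, was higher in xiphoid cartilage by 1.497-fold (adjusted p = 0.0138), with an adjusted p of 0.136 without xiphoid replicate 1 and 0.0625 without xiphoid replicate 2.

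Among 9 tested genes of receptor cleavage, 4 were higher in articular cartilage and 2 in xiphoid cartilage, while 3 did not pass. Adam10, the protease that makes the ligand-triggered cut, was at 22.5 and 32.1 CPM in articular libraries, against 8.58 and 9.45 CPM in xiphoid libraries, higher in articular cartilage by 3.02-fold (log2 fold change 1.60, SE 0.24, adjusted p = 1.5e-04). Its relative Adam17, which sheds many other surface proteins, was at 128.7 and 141.0 CPM in articular against 45.5 and 51.4 CPM in xiphoid libraries (log2 fold change 1.48, adjusted p = 9.1e-06). Psen2, a catalytic subunit of gamma-secretase, was at 8.97 and 8.61 CPM in articular libraries, against 20.3 and 16.9 CPM in xiphoid libraries (log2 fold change -1.08, adjusted p = 0.00196). The subunits Aph1b (log2 fold change 0.59, adjusted p = 0.0283) and Psenen (-0.58, adjusted p = 0.00773) went opposite ways. Without xiphoid replicate 1 neither passed (adjusted p = 0.317 for Aph1b, at a log2 fold change of 0.36, and 0.0892 for Psenen), Aph1b did not pass with DESeq2 either (adjusted p = 0.0554), and the subunits Ncstn and Aph1a did not pass.

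In the nucleus, Rbpj itself was at 79.8 and 91.4 CPM in articular libraries, against 86.4 and 94.5 CPM in xiphoid libraries. The libraries overlap, and it did not pass (log2 fold change -0.08, SE 0.15, adjusted p = 0.699, direction turned to 0.02 without articular replicate 1). Of 5 tested activators, Snw1, a coactivator and splicing protein, was higher in articular cartilage by 1.71-fold (81.4 ± 6.45 CPM in articular against 47.6 ± 1.22 CPM in xiphoid libraries, SD, n = 2 each, adjusted p = 0.00129) and 4 did not pass. Of 12 tested corepressors, 5 were higher in articular cartilage and 1 in xiphoid cartilage, while 6 did not pass. Cir1, a corepressor that binds RBPJ, was at 21.7 and 21.96 CPM in articular libraries, against 7.17 and 6.16 CPM in xiphoid libraries (log2 fold change 1.70, SE 0.23, adjusted p = 6.67e-05). Ncor1, a broadly used corepressor, was higher in articular cartilage by 2.12-fold (adjusted p = 1.45e-04), as was Spen by 1.86-fold (adjusted p = 0.00174). Tle1, a Groucho-type corepressor that HES proteins recruit, was the exception, 1.77-fold higher in xiphoid cartilage (adjusted p = 0.00229). It was at 21.8 ± 1.80 CPM in articular against 38.6 ± 1.74 CPM in xiphoid libraries (SD, n = 2 each). Its relative Tle4 was among the 5 genes higher in articular cartilage (log2 fold change 0.65, adjusted p = 0.0169).

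Genes that sort or degrade the receptor gave 2 of 8 tested genes higher in articular cartilage and 3 in xiphoid cartilage, while 3 did not pass. The ubiquitin ligases Itch (1.72-fold, adjusted p = 0.00207) and Nedd4 (1.65-fold, adjusted p = 0.0031) were higher in articular cartilage. Dtx3, a Deltex family gene, was higher in xiphoid cartilage by 1.71-fold (adjusted p = 0.00143). Numbl, a relative of the Notch inhibitor Numb, was 1.65-fold higher there (adjusted p = 0.00685, and 0.0522 without xiphoid replicate 2). Numb was at 15.2 and 21.96 CPM in articular libraries, against 28.0 and 26.4 CPM in xiphoid libraries, and only just passed (log2 fold change -0.55, adjusted p = 0.0493). Numb held in 6 of 14 other settings, and without articular replicate 1 its log2 fold change was -0.31 (adjusted p = 0.25).

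Notch1, Notch3, Notch4, Jag1, Dll4, Heyl and Hey2 are also genes of vessels, whose markers differed between the tissues in both directions. The endothelial list took 0.0321% and 0.0305% of the articular counts, against 0.0393% and 0.0377% of the xiphoid counts. Of its 13 tested genes, 2 were higher in articular cartilage and 6 in xiphoid cartilage, with a median log2 fold change of -0.37, and none of 14 matched genes was at 0. Pecam1, an adhesion protein of endothelial cells, was at 30.1 and 33.3 CPM in articular libraries, against 54.8 and 54.7 CPM in xiphoid libraries (log2 fold change -0.79, adjusted p = 0.00155), while the VEGF receptor Kdr was at 20.5 and 20.6 CPM in articular against 14.8 and 11.8 CPM in xiphoid libraries (log2 fold change 0.62, adjusted p = 0.0298). The Kdr call was lost without xiphoid replicate 2 (adjusted p = 0.239) and with DESeq2 (adjusted p = 0.0832). The other gene higher in articular cartilage was Erg, a transcription factor of endothelial cells and also of chondrocytes, 2.44-fold (adjusted p = 7.77e-05). Cldn5, a tight junction protein of endothelial cells, was higher in xiphoid cartilage by 6.74-fold (adjusted p = 8.6e-07). Erg and Cldn5 each passed in all 13 settings that tested them. Cdh5, the endothelial cadherin, did not pass (log2 fold change -0.37, adjusted p = 0.248). Its log2 fold change depended on the articular library, at -0.79 without articular replicate 1 and -0.04 without articular replicate 2.

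The mural list, for smooth muscle cells and pericytes, took 0.0384% and 0.0346% of the articular counts, against 0.0662% and 0.0632% of the xiphoid counts. Of 11 tested genes, 2 were higher in articular cartilage and 6 in xiphoid cartilage, with a median log2 fold change of -1.56, and none was at 0. Acta2, smooth muscle actin, was higher in xiphoid cartilage by 6.36-fold (6.46 ± 0.675 CPM in articular against 41.2 ± 8.82 CPM in xiphoid libraries, SD, n = 2 each, adjusted p = 1.77e-06). The pericyte marker Rgs5 was higher in articular cartilage by 1.96-fold (adjusted p = 0.04), a call that was lost with DESeq2 (adjusted p = 0.129) and with each library left out in turn (adjusted p from 0.0532 to 0.187), while Abcc9, a potassium channel subunit of pericytes, was 3.21-fold higher there (adjusted p = 2.41e-04) and passed in all 13 settings that tested it. Des, a filament protein of mural cells and also of skeletal muscle, was higher in xiphoid cartilage by 19.03-fold (adjusted p = 7.19e-09), and Pdgfrb did not pass (log2 fold change -0.04, adjusted p = 0.844). The part of vessel cells in the values of the Notch genes was not tested.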

How the data were processed

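The deposited table gave estimated counts per gene, unnormalized per the file headers, and 3.9% of its values were not whole. The submitters' processing notes name RSEM 1.2.12, Bowtie2 2.2.6, StringTie 1.2.1 and HISAT2 2.0.4 with rn6. No source used here says whether counting used strand. Counts were rounded, filtered by filterByExpr (11202 genes tested, 2352 untested), scaled by TMM and fitted in edgeR 4.0.16 (R 4.3.3; robust glmQLFit, tissue as the single term, 2 residual degrees of freedom, 2-sided). The fit draws the variance of each gene toward that of other genes. The median prior degrees of freedom were 10, beside the 2 residual ones. The p-values and intervals of a gene thus rest in part on the spread of other genes. The standard error of a log2 fold change is its size over the root of F. Confidence limits are at 95%. Intervals of fold changes come from the fit and include spread between libraries, whereas Wilson and Poisson intervals cover counting error only.

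The members and gene lists were chosen with earlier results of these data known. Named were all members, the best 2 tested genes of each pathway list, and set pathway and marker genes. Psen2, Psenen, Aph1b, Poglut1, Numbl, Nedd4, Tle1, Tle4, Spen, Cldn5, Erg, Des, Abcc9, Cnmd, Comp and Col1a1 were named after their values were seen. So were genes said to be untested or not passing. A pathway gene is counted with its list but not reported here. Of 196 list entries, 173 were matched, 4 of them by gene identifier under an older symbol. Promoters came from RefSeq (GRCr8). The 14 alternatives were other scalings (RLE, upper quartile, library sizes alone), other filters (none, or a mean of 5 CPM or more), limma-voom (limma 3.58.1), DESeq2 1.42.0, a replicate block, removal of ribosomal RNA rows or of other cells' markers, and each library left out.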

Additional observations from a re-analysis of the deposited data

How the results depend on the processing

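Across the 14 alternatives, Hes1 remained higher in articular cartilage and past the threshold in each, with log2 fold changes of 1.00 to 1.59 and adjusted p-values of 2.45e-08 to 0.0118. No other member passed under any of them. Of 124 member values, 123 kept direction and side of the threshold, the exception being Dll4, at 0.67 without xiphoid replicate 1; Dll4 and Hey1 have no value at a mean CPM of at least 5. The same values were computed for 50 other genes given a test result here, but not for Tle4. Of these 683 values, 626 kept both, 26 lost the call, 9 gained it and 22 changed sign. The sign changes, of genes that had not passed, were Rbpj (0.02 without articular replicate 1), Dll1 (-0.64 without articular replicate 2 and -0.15 without xiphoid replicate 2), Hes6 (0.019 with upper-quartile factors, 0.30 without articular replicate 2, 0.26 without xiphoid replicate 1), Pdgfrb (0.0030 with upper-quartile factors), Sox9 (-0.015 without xiphoid replicate 1), and Mib2, Ncstn, Mfng, Neurl1b, Aph1a and Maml3. Mib2 and Ncstn were at 0.0353 and 0.0349 with upper-quartile factors, 0.0086 and 0.0121 at a mean CPM of at least 5, and 0.0073 and 0.0075 without ribosomal RNA rows; the other sign changes were with a library left out. With each library left out in turn these genes ranged from -0.65 to 0.67 (Dll4), -0.18 to 0.02 (Rbpj), -0.64 to 1.16 (Dll1), -0.48 to 0.30 (Hes6) -0.015 to 0.42 (Sox9), -0.1415 to 0.1054 (Mib2), -0.1206 to 0.096 (Ncstn), -0.5432 to 0.0752 (Mfng), -0.3459 to 0.7424 (Neurl1b), -0.0546 to 0.1079 (Aph1a) and -0.1455 to 2.0897 (Maml3). Over all genes tested, 2235 to 2952 were higher in articular cartilage and 2070 to 3041 higher in xiphoid cartilage with single libraries left out, where the lone library of a tissue is assumed to vary like the other tissue. The replicate numbers are shared between tissues, but no label says that they pair samples; across genes the deviations of same-numbered libraries correlated at 0.24. With the replicate block, 3344 and 3484 genes were called, the members still gave 1 and 0, the pathway lists gave 16 and 13, and Nrarp (adjusted p = 0.0322) and Crebbp (0.017) passed. Depth limits Hey1, Dll4, Jag1 and Notch4 most, with 6 to 61 counts a library.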

Other observations

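For both canonical Delta ligands that were tested, the xiphoid libraries lay farther apart than the tissue means did. For Dll1 the articular libraries did so too, while those of Dll4 lay close together. Dll1 had 13 and 36 counts in articular libraries, against 29 and 10 in xiphoid libraries. Dll4 had 25 and 24 counts in articular libraries, against 41 and 14 in xiphoid libraries. The coactivator Maml3, named after its values were seen, had 19 and 10 counts in articular and 17 and 3 in xiphoid cartilage and did not pass either (log2 fold change 0.52, adjusted p = 0.554).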
